A study of Mus musculus with 4 samples.

Results

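The genes described here are 7 chaperone and co-chaperone genes: Dnaja1, Dnajb5, Dnajc21, Dnajc25, Bag1, Cct5 and Vcp. They were chosen by symbol with earlier results of these data known, from regions where names appear to hold their own reads. The choice was therefore not blind to the data. They are 7 of the 56748 gene IDs in the count tables. RNA came from lymph nodes of 4 EAE mice; EAE, experimental autoimmune encephalomyelitis, is a model of multiple sclerosis in which the immune system is made to attack myelin in brain and spinal cord. The 2 BrQ mice had EAE and were treated with 2-bromo-1,4-naphthalenedione, a brominated quinone, and the 2 Vehicle mice had EAE and served as controls. The titles number the mice 1 and 3 in each group. The labels give no strain, sex, age, immunisation, dose or duration, and the groups hold no mouse without EAE. The question is how the messages of the protein folding machinery stood in BrQ mice relative to Vehicle mice.

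Chaperones bind unfolded stretches of other proteins and help them to fold, to assemble or to be destroyed. In the cytosol the central machine is Hsp70, an ATPase: J-domain proteins deliver clients to it and trigger ATP hydrolysis, and nucleotide exchange factors such as Bag1 then release ADP and the client. Actin, tubulin and other proteins pass on to the ring-shaped chaperonin TRiC/CCT, and proteins that are to be destroyed are pulled out of complexes by the hexameric ATPase Vcp. Many chaperone genes are induced through heat shock elements, promoter sequences built from GAA units and their complement TTC, to which heat shock factor binds.

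Of these genes 4 are J-domain proteins: Dnaja1 and Dnajb5, both Hsp70 partners of the Hsp40 kind, Dnajc21, which is known for its part in the cytosolic maturation of the large ribosomal subunit, and Dnajc25, a little-studied member. Dnajc25 is predicted to span a membrane, so the word cytosolic holds for it with less certainty than for the others. On GRCm38, by the GENCODE M21 annotation, Dnaja1 (ENSMUSG00000028410) lies on the plus strand at chr4:40722150-40737149 and Bag1 (ENSMUSG00000028416) on the minus strand at chr4:40936398-40948294. Dnajb5 (ENSMUSG00000036052) lies on the plus strand at chr4:42949814-42959425, and Vcp (ENSMUSG00000028452) on the minus strand at chr4:42979963-43000507. The gap between Dnajb5 and Vcp is 20.5 kb; the protein-coding gene 1700022I11Rik begins in it and overlaps Vcp. Dnajc25 (ENSMUSG00000070972) is on the plus strand at chr4:58995062-59025573. Dnajc21 (ENSMUSG00000044224) and Cct5 (ENSMUSG00000022234) are on the minus strand of chromosome 15, at chr15:10446756-10470516 and chr15:31590800-31601804.

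The tables need care before any gene is read, because most gene names in them appear not to stand on the reads of those genes. Of 21236 protein-coding genes outside the 2 regions that hold these 7 genes (chromosome 4 from 3 to 62 Mb and chromosome 15 from 8 to 38 Mb), 17.4% averaged at least 100 reads, against 50.8% of 447 inside them. The regions were taken where names appear to hold their own reads, so a higher share inside follows from the choice. Read density cannot show that a name stands on its own reads. All 7 genes had more than 100 reads in every library. Among the 10 nearest protein-coding genes on each side, at least 100 reads were averaged by 15 of 20 around Dnaja1, 16 of 20 around Bag1, 10 of 20 around Dnajc25, 9 of 20 around Cct5, and 8 of 20 around both Dnajc21 and Vcp. Dnajb5 had 6 of 20: all 6 lay to its right, and 0 of the 10 on its left reached 100 reads, so its count is the least certain of the 7. Vcp borders the same stretch, with 2 of 10 on its left and 6 of 10 on its right. Only 3 of 10 reached 100 reads to the left of Dnajc21, to the left of Dnajc25 and to the right of Cct5. A list of 90 other chaperone, co-chaperone and Vcp cofactor genes had 0 members in the 2 regions. Of these 90, 28 had no read in any library and the median of their mean counts was 1.13 reads. As a count only, 35 of the 90 were tested, with 4 called higher and 10 lower in BrQ. Of all 10223 features tested, 45.7% were called, 23.6% higher and 22.2% lower. The direction in the list turned with the scale: with library size alone 8 were higher and 4 lower. Those values were not shown to be readings of the named genes and are not described further.

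The promoters are shown with short matches to the heat shock element. Whether these matches bear on the values of the genes was not tested. Windows from 250 bases before to 50 bases after each annotated start were taken from RefSeq on GRCm38.p6, and all 7 genes matched, with 12 windows. Both strands were searched for GAANNTTC and TTCNNGAA, each of which is its own reverse complement; these motifs can overlap each other. At least 1 of the motifs was present in 15.1% of all 32851 promoter windows, and in a window of 17.0% of 27025 genes. It was present in 3 of the 7 genes, Dnaja1, Cct5 and Vcp, once in each. The first listed windows of these 3 follow, and then those of Dnajb5 and Bag1, which had no such match in any of their windows. Dnajc21 and Dnajc25 had no match either, and their windows are not printed. Sequences run 5′ to 3′ on the strand of the gene, with the matched bases in capitals.
Dnaja1, chr4:40722218-40722517, plus strand: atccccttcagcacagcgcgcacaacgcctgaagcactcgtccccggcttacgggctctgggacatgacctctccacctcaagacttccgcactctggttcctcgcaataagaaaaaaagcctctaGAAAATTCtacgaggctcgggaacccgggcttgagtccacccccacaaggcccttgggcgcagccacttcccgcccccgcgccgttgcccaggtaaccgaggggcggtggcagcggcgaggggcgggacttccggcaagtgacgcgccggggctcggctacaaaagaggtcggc
Cct5, chr15:31601797-31602096, minus strand: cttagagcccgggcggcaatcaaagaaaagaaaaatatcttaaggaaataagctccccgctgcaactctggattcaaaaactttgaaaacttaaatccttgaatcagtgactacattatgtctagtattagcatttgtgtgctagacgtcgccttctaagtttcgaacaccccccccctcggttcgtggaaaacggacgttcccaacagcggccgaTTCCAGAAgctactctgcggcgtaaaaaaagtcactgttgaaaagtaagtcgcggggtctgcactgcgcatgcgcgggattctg
Vcp, chr4:43000458-43000757, minus strand: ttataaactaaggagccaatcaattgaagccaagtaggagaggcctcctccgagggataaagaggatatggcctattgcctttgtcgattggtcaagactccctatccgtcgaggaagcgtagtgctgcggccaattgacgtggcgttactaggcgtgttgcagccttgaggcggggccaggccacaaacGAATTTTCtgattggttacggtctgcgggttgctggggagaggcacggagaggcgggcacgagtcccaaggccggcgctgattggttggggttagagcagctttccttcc
Dnajb5, chr4:42949617-42949916, plus strand: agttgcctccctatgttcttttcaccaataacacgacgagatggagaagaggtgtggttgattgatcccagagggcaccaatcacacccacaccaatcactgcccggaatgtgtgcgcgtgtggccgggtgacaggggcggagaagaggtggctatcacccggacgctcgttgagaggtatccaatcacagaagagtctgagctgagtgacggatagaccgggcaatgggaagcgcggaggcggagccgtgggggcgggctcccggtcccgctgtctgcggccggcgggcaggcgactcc
Bag1, chr4:40948245-40948544, minus strand: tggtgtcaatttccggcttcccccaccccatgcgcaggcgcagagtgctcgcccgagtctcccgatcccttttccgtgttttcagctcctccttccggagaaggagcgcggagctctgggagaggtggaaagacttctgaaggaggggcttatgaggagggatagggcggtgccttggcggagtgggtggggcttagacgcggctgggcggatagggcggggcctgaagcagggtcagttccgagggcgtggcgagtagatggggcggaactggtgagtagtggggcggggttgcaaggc

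The match in Dnaja1, GAAAATTC, began 124 bases before the annotated start. That in Cct5, TTCCAGAA, began 34 bases before it, and that in Vcp, GAATTTTC, 60 bases before it. Dnaja1 has 3 annotated windows and Cct5 has 2, and the match was in 1 of them for each gene. The CCAAT box, searched as CCAAT on both strands, is a general promoter element. It was present in 37.4% of windows and in a window of 41.1% of genes. Among the 7 genes CCAAT occurred 5 times in the Vcp window, 2 to 4 times in each Dnajb5 window and 2 times in each of the other 2 Dnaja1 windows. The core of the antioxidant response element, through which electrophiles such as quinones can induce genes, was searched as TGACNNNGC on both strands. It was present in 12.4% of windows and in a window of 14.0% of genes. Among the 7 genes it was present in Bag1 and Vcp. Such a match is a description of the letters and does not show binding.

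Reads assigned to genes numbered 6992223 (replicate 1) and 6813832 (replicate 3) for BrQ, against 7315568 (replicate 1) and 7989226 (replicate 3) for Vehicle. Most reads fell in no gene, between 86.8% and 88.8% of all read rows per library. Mitochondrially encoded features took 15.8% and 12.1% of gene reads in BrQ mice and 20.6% and 30.3% in Vehicle mice. The 7 genes together took 0.433% (95% Wilson interval 0.428 to 0.437) and 0.460% (0.455 to 0.465) of gene reads in BrQ mouse 1 and mouse 3. The share was 0.299% (0.295 to 0.303) and 0.242% (0.239 to 0.245) in Vehicle mouse 1 and mouse 3. These intervals cover counting error only. Their combined share was higher in both BrQ mice than in either Vehicle mouse, and it remained so when mitochondrial reads were left out of the total, at 0.514% and 0.523% in BrQ and 0.376% and 0.347% in Vehicle. Dnaja1, Cct5 and Vcp made up most of the reads of the 7 genes. Such a share is scaled by library size alone, by which the median log2 fold change of all features was itself 0.42. With library size without mitochondrial features that median was 0.20.

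Relative to Vehicle, BrQ lymph nodes had more message of the Hsp70 partner Dnaja1, 1.69-fold, and of the chaperonin subunit Cct5, 1.43-fold. They had less of Dnajb5, at 0.509 of the Vehicle level, and of Bag1, at 0.764 of it. The calls of Dnaja1 and Dnajb5 were made under all 17 alternatives, while that of Bag1 was lost under 10 of them (scalings, filter, test, replicate block and libraries) and that of Cct5 under 4 (no filter, and 3 of the 4 libraries left out). Vcp, Dnajc21 and Dnajc25 did not pass the test. So 4 of the 7 genes, all of which could be tested, passed an adjusted p of 0.05 with edgeR, 2 higher and 2 lower in BrQ. That is to be read against 45.7% of the 10223 features tested, 23.6% higher and 22.2% lower, and against 44.8% of the 339 features tested in the 2 regions, 17.1% higher and 27.7% lower. The share of the 7 that passed was therefore near the background. Their median log2 fold change was -0.0083, against 0.05 over all features and -0.22 over the 2 regions. In whole lymph nodes, fewer cells of a type and less RNA per cell cannot be told apart.

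**Figure D1:**
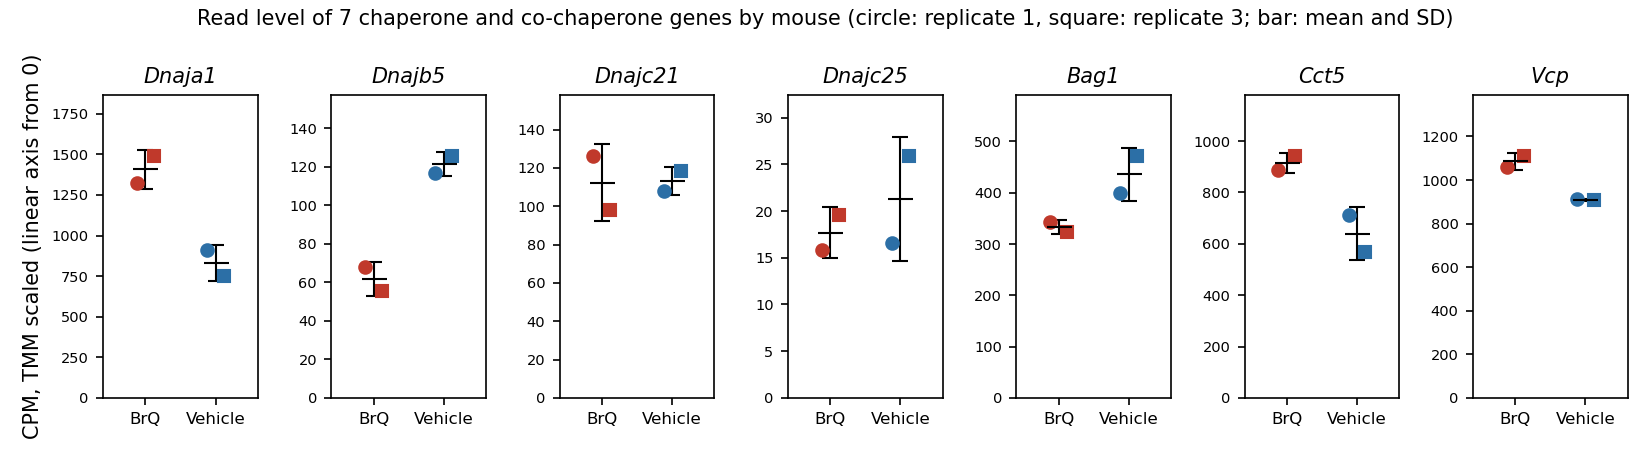
Read level in CPM (reads scaled to a common library size with TMM factors; y axes linear from 0, 1 per gene) in each mouse, with BrQ left of Vehicle; points are mice and bars the mean and SD of 2. Dnaja1, Cct5 and Vcp lie higher in both BrQ mice, Dnajb5 and Bag1 lower in both, and the groups overlap for Dnajc21 and Dnajc25. Vcp did not pass the test. How many of all features separate in this way was not counted.

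Dnaja1 encodes a farnesylated J-domain protein that hands clients to Hsp70. Its read counts were 10461 (replicate 1) and 11564 (replicate 3) in the BrQ mice, against 6263 (replicate 1) and 4898 (replicate 3) in the Vehicle mice. After TMM scaling this was 1321 and 1492 CPM in BrQ and 910 and 752 CPM in Vehicle. Both BrQ mice stood above both Vehicle mice, with group means of 1407 ± 121 CPM in BrQ and 831 ± 112 CPM in Vehicle (SD, n = 2 each). The log2 fold change was 0.76 (SE 0.14, adjusted p = 0.00233 with edgeR's quasi-likelihood test). Dnaja1 passed as higher under each of the 17 alternatives, among them each library left out, with log2 fold changes from 0.61 to 1.12. Of its exonic bases, 10.8% are shared with other annotated genes. The largest such stretch, 608 bases, is shared with Smu1 on the opposite strand, and 2 smaller ones with Gm6297 and Mir207. Smu1 had read counts of 2324 and 2157 in the BrQ mice, against 2477 and 2458 in the Vehicle mice, so the interval of this neighbour had fewer reads in BrQ while Dnaja1 had more. Whether strand was used in counting is not given, so reads on the shared stretch are uncertain.

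Dnajb5, a J-domain protein of the B class, had read counts of 538 (replicate 1) and 431 (replicate 3) in the BrQ mice, against 805 (replicate 1) and 820 (replicate 3) in the Vehicle mice. Its levels were 68.0 and 55.6 CPM in BrQ and 117 and 126 CPM in Vehicle. Both BrQ mice were below both Vehicle mice, and the means were 61.8 ± 8.73 CPM in BrQ and 121 ± 6.28 CPM in Vehicle (SD, n = 2 each). Its log2 fold change was -0.97 (SE 0.17, adjusted p = 0.00148 with edgeR). The fall passed under each of the 17 alternatives, with log2 fold changes from -1.11 to -0.60. None of its exonic bases are shared with another gene in GENCODE M21, but the empty names on its left, given above, limit how surely these reads are its own.

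Dnajc21 had read counts of 1001 and 761 in the BrQ mice, against 742 and 770 in the Vehicle mice, or 126 and 98.2 CPM in BrQ and 108 and 118 CPM in Vehicle. The BrQ mice lay on either side of the Vehicle mice. Its log2 fold change was -0.0083 (SE 0.17, adjusted p = 0.973 with edgeR), and its sign turned with the scaling. Dnajc25 was the weakest of the 7, with read counts of 125 and 152 in the BrQ mice, against 114 and 169 in the Vehicle mice, or 15.8 and 19.6 CPM in BrQ and 16.6 and 25.9 CPM in Vehicle. The groups overlapped, and the log2 fold change was -0.26 (SE 0.27, adjusted p = 0.453 with edgeR). Counting alone gives a single Dnajc25 value a relative error of 7.69% to 9.37%, against 0.930% to 1.43% for Dnaja1. It shares 348 exonic bases, 7.66% of its own, with the readthrough model Gm20503, which held 0 reads in all 4 libraries.

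Bag1, the nucleotide exchange factor that also binds the survival protein Bcl-2, had read counts of 2716 and 2504 in the BrQ mice, against 2751 and 3079 in the Vehicle mice. After scaling it stood at 343 and 323 CPM in BrQ and 400 and 472 CPM in Vehicle. Both BrQ mice were below both Vehicle mice, with means of 333 ± 14.1 CPM in BrQ and 436 ± 51.5 CPM in Vehicle (SD, n = 2 each). The log2 fold change was -0.39 (SE 0.14, adjusted p = 0.0435 with edgeR). The call is close to the threshold and was lost under 10 of 17 alternatives. With library size alone as the scale the log2 fold change was -0.0099 (adjusted p = 0.968 with edgeR), and with the replicate number as a block it was -0.38 (adjusted p = 0.0930 with edgeR); over all alternatives the adjusted p ran from 0.0176 to 0.968. It was also lost without BrQ replicate 1 (-0.42), without BrQ replicate 3 (-0.34) and without Vehicle replicate 3 (-0.28).

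Cct5 encodes a subunit of the chaperonin TRiC/CCT, which folds actin and tubulin. Its read counts were 7029 and 7311 in the BrQ mice, against 4896 and 3689 in the Vehicle mice. Its scaled levels were 888 and 943 CPM in BrQ and 711 and 566 CPM in Vehicle. Both BrQ mice were above both Vehicle mice, and the means were 916 ± 39.2 CPM in BrQ and 639 ± 103 CPM in Vehicle (SD, n = 2 each). The log2 fold change was 0.52 (SE 0.14, adjusted p = 0.0156 with edgeR). It kept its sign under all 17 alternatives, and the call was lost under 4: without a low count filter (adjusted p = 0.0681, edgeR), without BrQ replicate 1 (0.58, adjusted p = 0.0515, edgeR), without BrQ replicate 3 (0.49, adjusted p = 0.121, edgeR) and without Vehicle replicate 3 (0.35, adjusted p = 0.0977, edgeR). None of its exonic bases are shared with another gene. The other subunits of the chaperonin lie outside the 2 regions, so whether the complex moved together could not be read here.

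Vcp, the ATPase that extracts ubiquitin-tagged proteins for the proteasome, had read counts of 8378 and 8621 in the BrQ mice, against 6275 and 5908 in the Vehicle mice. It stood at 1058 and 1112 CPM in BrQ and 912 and 907 CPM in Vehicle. The groups did not overlap, at 1085 ± 38.3 CPM in BrQ and 909 ± 3.59 CPM in Vehicle (SD, n = 2 each), but the log2 fold change of 0.26 (SE 0.12) did not pass (adjusted p = 0.1099 with edgeR). It passed as higher under 4 alternatives of scale, with log2 fold changes from 0.42 to 0.63. These were library size alone, library size from all read rows, library size without mitochondrial features, and TMM within the 2 regions. Over all alternatives its adjusted p ran from 0.00515 to 0.383 with edgeR, DESeq2 and limma. Vcp shares 352 exonic bases, 7.26% of its own, with 1700022I11Rik on the opposite strand. That interval had read counts of 2093 and 2131 in the BrQ mice, against 1346 and 1030 in the Vehicle mice, and reads on the shared stretch are uncertain for both. The empty names to the left of Dnajb5 also lie near Vcp and limit how surely its reads are its own. The row named Vcp-rs, a Vcp-related sequence, had read counts of 27 and 43 in the BrQ mice, against 3 and 4 in the Vehicle mice, and the row Dnaja1-ps, a pseudogene, held none. Whether either name stands on its own reads was not checked, so these counts are not read as Vcp or Dnaja1 message.

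**Figure D2:**
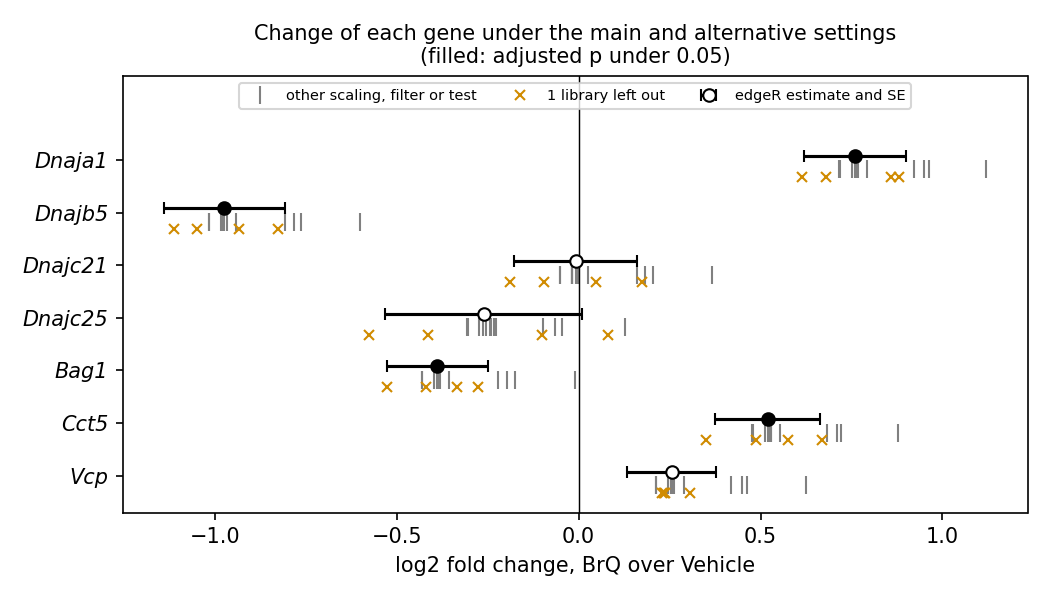
Log2 fold change of BrQ over Vehicle for each gene (x axis) with the edgeR estimate and its SE (circles, filled where the adjusted p was under 0.05), estimates under other scalings, filters and tests (ticks) and with 1 library left out (crosses). Dnaja1, Cct5 and Vcp stay above 0 and Dnajb5 and Bag1 below 0 under every alternative shown, while Dnajc21 and Dnajc25 cross 0.

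How the libraries are scaled against each other set part of these values. With library size alone the median log2 fold change of all features was 0.42, against 0.05 with TMM, and 3607 features were called higher and 1072 lower, against 2409 and 2267 with TMM. Library size from all read rows gave 3060 and 1587, and library size without mitochondrial features 2966 and 1736. In the 2 regions the split was 58 higher and 94 lower with TMM, 103 and 31 with library size alone, 84 and 62 from all read rows, 79 and 67 without mitochondrial features, and 80 and 57 with TMM within the regions. Counted from the median of the 2 regions in the same fit, Dnaja1 lay 0.98 higher on the log2 scale, Cct5 0.74, Vcp 0.48 and Dnajc21 0.21. Dnajc25 lay at -0.038, Bag1 at -0.17 and Dnajb5 at -0.75. These distances do not depend on the scale by construction, but they do depend on the libraries. With 1 library left out they ran from 0.78 to 1.16 for Dnaja1, from 0.52 to 0.95 for Cct5, from 0.40 to 0.56 for Vcp, from -0.25 to -0.11 for Bag1 and from -0.86 to -0.65 for Dnajb5. Among the 339 features of the 2 regions, the share with a lower log2 fold change was 87.9% for Dnaja1, 81.4% for Cct5, 72.6% for Vcp, 38.1% for Bag1 and 11.2% for Dnajb5.

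Ratios between the genes inside 1 library do not depend on that scale. The log2 ratio of Dnaja1 to Vcp reads was 0.32 (replicate 1) and 0.42 (replicate 3) in the BrQ mice, against -0.0028 (replicate 1) and -0.27 (replicate 3) in the Vehicle mice. Dnaja1 thus had more reads than Vcp in both BrQ mice and fewer in both Vehicle mice, by a small margin in Vehicle replicate 1. Cct5 to Vcp gave -0.25 and -0.24 in BrQ and -0.36 and -0.68 in Vehicle. Dnaja1 to Cct5, the 2 genes called higher, gave 0.57 and 0.66 in BrQ and 0.36 and 0.41 in Vehicle. For Dnajb5 to Vcp, which lie 20.5 kb apart, the log2 ratio was -3.96 and -4.32 in BrQ and -2.96 and -2.85 in Vehicle, a mean 2.35 times lower in BrQ. Between the J-domain protein and the exchange factor that act at opposite steps of the Hsp70 cycle, Dnaja1 to Bag1, the log2 ratio was 1.95 and 2.21 in BrQ and 1.19 and 0.67 in Vehicle, a mean 2.22 times higher in BrQ. The widest differences of all pairs involved Dnajb5: the mean log2 ratio of Dnaja1 to Dnajb5 was 4.51 in BrQ and 2.77 in Vehicle, and that of Dnajb5 to Cct5 was -3.89 in BrQ and -2.39 in Vehicle. With 2 mice against 2 the smallest p that a two-sided exact permutation test can give is 0.33. It was reached by 18 of all 21 pairs, so reaching it sets none of the named pairs apart, and adjusted over all 21 pairs the exact permutation p-values ran from 0.39 to 0.67.

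**Figure D3:**
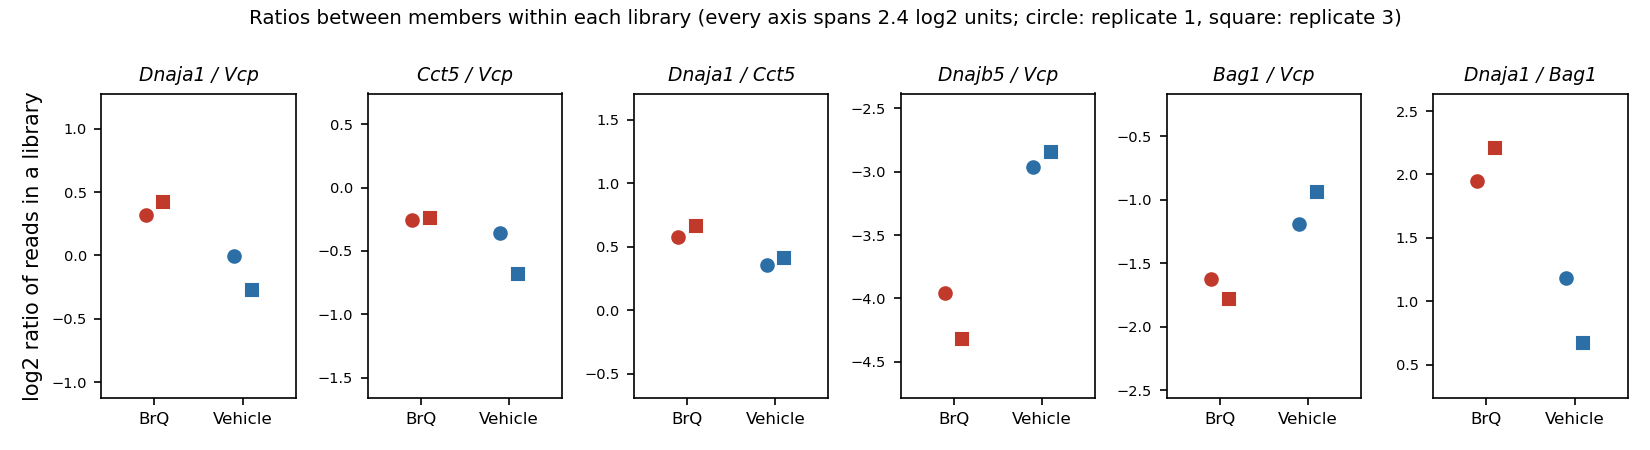
Log2 ratio of the reads of 2 genes within each library (y axes, each spanning the same range), with BrQ left of Vehicle and 1 point per mouse. The ratios of Dnaja1 to Bag1 and of Dnajb5 to Vcp show the widest gaps between the groups among the 6 pairs plotted.

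Levels can be set against each other between genes only per length, here as CPM per kb of the union of annotated exons. In BrQ mice the order of the means was Cct5 at 331 ± 14.2, Bag1 at 247 ± 10.5, Vcp at 224 ± 7.89 and Dnaja1 at 163 ± 14.0 CPM per kb (SD, n = 2 each). In Vehicle mice it was Bag1 at 323 ± 38.2, Cct5 at 231 ± 37.1, Vcp at 187 ± 0.739 and Dnaja1 at 96.3 ± 13.0 CPM per kb. By this length, the ranges of Bag1 and Cct5 did not overlap in either group, and Bag1 was the lower of the pair in BrQ and the higher in Vehicle. By the longest transcript their ranges overlapped in Vehicle, and the mean of Bag1 was the lower in both groups. Dnajc21, at 23.5 ± 4.18 CPM per kb in BrQ and 23.7 ± 1.53 in Vehicle, lay well under these 4. It was followed by Dnajb5 at 10.4 ± 1.47 in BrQ and 20.5 ± 1.06 in Vehicle, whose level in Vehicle differed from that of Dnajc21 by little more than their spread, and by Dnajc25 at 3.90 ± 0.595 in BrQ and 4.68 ± 1.46 in Vehicle. The order among the upper genes depends on the length used. By the longest transcript, the mean over the 4 mice was 419 CPM per kb for Cct5, 301 for Vcp, 285 for Bag1 and 199 for Dnaja1, while by the union of exons it was 281, 206, 285 and 130 CPM per kb.

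**Figure D4:**
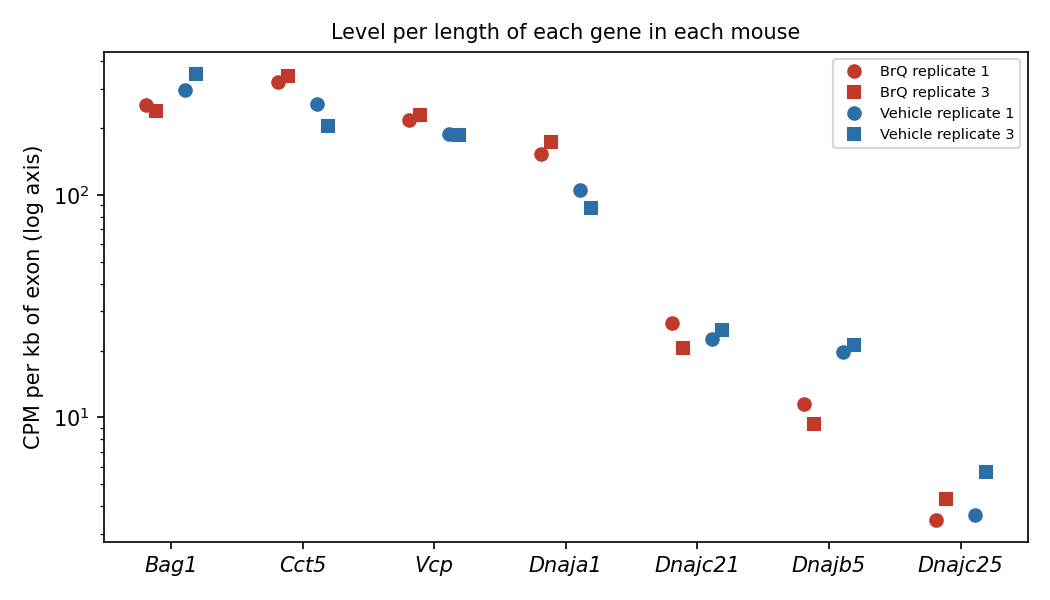
Level of each gene in CPM per kb of exon (log axis) in each mouse, genes in order of their mean over the 4 mice, BrQ left of Vehicle. Bag1, Cct5, Vcp and Dnaja1 lie between 87.1 and 350.3 CPM per kb, and Dnajc21, Dnajb5 and Dnajc25 below 27.

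Cell type markers were set beside these values. Of the B cell markers, Pax5, a transcription factor, and Cd72, a surface receptor, lie in the 2 regions. Pax5 stood at 1030 and 1096 CPM in BrQ mice and 1233 and 1252 CPM in Vehicle mice. Cd72 stood at 1038 and 1023 CPM in BrQ and 2011 and 2130 CPM in Vehicle. Together they summed to 2068 and 2119 CPM in BrQ and 3245 and 3382 CPM in Vehicle, so both BrQ mice were below both Vehicle mice. Most of that difference was in Cd72. The median log2 fold change of features in the 2 regions was itself -0.22 with TMM. Outside the regions, the row Cd79a had read counts of 20 and 14 in the BrQ mice, against 6 and 5 in the Vehicle mice, Cd79b had 393 and 432 in BrQ, against 266 and 139 in Vehicle, and Ms4a1 was at 0 in all 4 libraries. The summed level of 5 T cell marker names, of which Il7r lies in the regions, was 805 and 887 CPM in BrQ and 1271 and 1360 CPM in Vehicle. Il7r alone stood at 516 and 605 CPM in BrQ and 810 and 898 CPM in Vehicle. The names outside the regions are given here as unscaled read counts, which cannot be set beside the CPM values. The TMM factors were 1.14 and 1.14 in BrQ and 0.944 and 0.818 in Vehicle. A small excess of raw reads in BrQ, as for Cd3e, is therefore not a rise in level. Cd4 had read counts of 777 and 762 in BrQ, against 1870 and 1837 in Vehicle. Cd3e had 1470 and 1406, against 1294 and 1175. Cd8a had 46 and 20, against 17 and 7, and Cd3d had 1 and 1, against 4 and 0. Stromal Ccl19 and Ccl21a summed to 3.40 and 1.03 CPM in BrQ and 0.724 and 0 CPM in Vehicle, with Ccl21a at 0 throughout. Names outside the regions may stand on other reads. The part of cell makeup, and that of the mitochondrial share given above, in the differences of these 7 genes was not tested.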

How the data were processed

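Lymph node RNA of 4 EAE mice was sequenced in paired ends, with 1 library for each mouse, per the labels' protocols. The submitters' processing notes name the trimmer Trim Galore 0.6.2, the aligner HISAT2 2.1.0, the counter HTSeq 0.11.2 and the genome mm10; which annotation and strand setting were used is not stated there. Each deposited table gives the authors' raw counts of reads, 1 number for each gene ID. Rows that name no gene took 87.0% to 89.0% of all read rows and were kept out of library sizes. Groups came from the titles. The labels speak of different mice, and p-values measure the spread between these 4 only. The 2 BrQ libraries differed by a chi-square of 13.9 per degree of freedom and the 2 Vehicle libraries by 31.1, so none repeated another.

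All 10223 features that passed filterByExpr were tested with edgeR 4.0.16 (quasi-likelihood, TMM, group as the only term, R 4.3.3), with Benjamini-Hochberg adjustment over all of them and a threshold of 0.05; SE is the log2 fold change divided by the root of F. Positions and exon lengths came from GENCODE M21. Ratios used a prior count of 0.5. Alternatives were other scalings, filters, the legacy fit, DESeq2 1.42.0, limma 3.58.1 voom, the replicate block, and each library left out. The 17 alternatives also include the replicate block with the numbers crossed, which was chosen after seeing the data. On simulated counts (9909 features tested), edgeR found 44 of the 100 features given a 2-fold change and 99 of the 100 given a 4-fold change, and 5 of its 148 calls were false. No other feature was changed there, and all had the same dispersion of 0.035. In the real comparison 45.7% of features were called, so these rates need not hold for it. All 7 genes are named whatever their result. The genes and lists were chosen with earlier results of these data known. The B cell marker level is summed over the 2 markers in the regions; the sum over the whole list is not reported here.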

Additional observations from a re-analysis of the deposited data

Results flagged for a closer look

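Reads that fell in no gene, which enter no comparison here, made up a mean of 88.7% of all read rows in BrQ mice and 87.3% in Vehicle mice, and each BrQ library exceeded each Vehicle library. They carry no gene names, and their part in the values of the 7 genes was not tested.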

How the results depend on the processing

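With TMM, 2 genes were called higher (Dnaja1 and Cct5) and 2 lower (Dnajb5 and Bag1). The number called higher was 3, with Vcp added, with library size alone, from all read rows, without mitochondrial features and with the 2 regions alone; it was 1 without a low count filter and 1 to 2 with a library left out. The number called lower was 1 with library size alone, from all read rows, without mitochondrial features, with the 2 regions alone, without a low count filter, with DESeq2 and with the replicate block, and 1 to 2 with a library left out. Over the whole table, no low count filter gave 2481 calls (1307 higher, 1174 lower), and leaving out a library gave 2031 to 4376 (1116 to 2135 higher, 915 to 2241 lower); library size alone gave 1072 lower. In the 2 regions these were 81 calls without a filter and 56 to 151 with a library left out. The lowest feature counts came without BrQ replicate 3. A group with a library left out is 1 mouse, assumed to vary like the other group.

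Dnajc21, with no call, changed sign to 0.37 with library size alone, 0.20 from all read rows, 0.16 without mitochondrial features, 0.18 with the regions alone and 0.024 without a filter, and ran from -0.19 to 0.17 with a library left out. Dnajc25, with no call either, was 0.13 with library size alone and ran from -0.58 to 0.081 with a library left out. The cause was not tested.

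The titles share the numbers 1 and 3, but nothing says that they pair mice. The replicate 1 minus 3 differences of the groups correlated at -0.12 across 10223 features. With the replicate block 4190 features were called and Bag1 was lost; with the numbers crossed, chosen after seeing the data, 5284 were called. Counting error was largest for Dnajc25.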
